A study of Rattus norvegicus with 16 samples.

Results

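The m6A peaks annotated to the 5' untranslated region (5'UTR) of rat ovary transcripts were the members described here. They were taken as every row whose annotation is 5'UTR in the authors' peak lists of the control group (CON) and of the group treated with 4-vinylcyclohexene diepoxide (VCD). The rule found 690 of 22316 peaks in the CON list (3.09%) and 668 of 21528 peaks in the VCD list (3.10%). These peaks lay in 662 genes in CON and 633 genes in VCD, and in 876 genes in all, of which 419 had a 5'UTR peak in both lists.

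VCD is an ovotoxic diepoxide that depletes small ovarian follicles. Poly(A) RNA from the ovaries of 8 rats, 4 CON and 4 VCD, was fragmented, and each rat gave 2 libraries, an immunoprecipitate with an m6A antibody (IP) and an input, 16 libraries in all. The labels give the treatment, the tissue and a batch number from 1 to 4 that each CON rat shares with a VCD rat, and no dose, duration or age. The sample labels name rat, but mice appear in the series text and a human genome build in the submitters' processing notes; the gene identifiers in the deposited tables are rat Ensembl identifiers.

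m6A is a methyl mark placed on internal adenosines of mRNA by the METTL3 and METTL14 complex, most often near stop codons and in the 3'UTR. A related mark, m6Am, sits on the first transcribed nucleotide beside the cap where that nucleotide is an adenosine, and is written by PCIF1. Antibodies against m6A also bind m6Am, so a peak at the very start of a transcript can come from either mark, and these data do not tell them apart. In a bulk tissue, fewer cells of a type and less RNA per cell cannot be told apart either.

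Because the cap-adjacent mark needs an adenosine at the start, RefSeq start sites are shown for 6 of the 10 strongest 5'UTR peaks found in both lists and for 3 of the genes that the authors' deposited table marks as different between the groups. Only genes on the same strand in RefSeq and in the deposited tables are shown. Fbxw7, and among genes named further on Ppt2 and Fgf1, lie on opposite strands in the 2 sources and are left out. Tcf4 lies on the same strand in both and begins with G, and is not shown either. The sequences are from RefSeq with the GRCr8 assembly, 15 bases upstream of the start and then the transcript, for genes with a single RefSeq start. They are written 5′ to 3′, and the capital is the first transcribed base. The peak coordinates given further on belong to the build of the deposited tables, which the sources used here do not name, so peaks were not placed on these sequences.

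Orai3, chr1:191811656-191811685, plus strand: cctgtttcggcccctGggccttctagacgc
Mk1, chr16:18817279-18817308, minus strand: agttttataaaggatGacatttaattcggg
Gse1, chr19:65494645-65494674, plus strand: tgagataagcagttcAgacaaacccgggcg
Rgs12, chr14:80034845-80034874, minus strand: ctagggcctgggcccCgccctacaatgact
Lmo4, chr2:235941261-235941290, minus strand: tgccaaacttgcagcCgcgattgcagcagt
Kank1, chr1:232381705-232381734, plus strand: ggacaaactgctgagCtactgaattttatc
Gpr37, chr4:55126406-55126435, minus strand: tctcctccctcccgtTctactccacgcctt
Map3k13, chr11:92739649-92739678, minus strand: cggcgcctgcgcgcaGgggttgcgctgggt
Osgep, chr15:26618099-26618128, minus strand: taacttctggcgcctGaaggtcccttcgct

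Of these genes, Gse1, which encodes a subunit of a histone demethylase and deacetylase complex, has an adenosine as its annotated first base. The others begin with C, G or T in RefSeq. Over all genes with a 5'UTR peak, 633 of 874 had a single RefSeq start, and 109 of these began with A (17.2%, exact 95% binomial interval 14.4 to 20.4%). Among 9078 tested protein-coding genes without a 5'UTR peak the share was 22.1% (21.2 to 22.9%), and over all 24206 single-start promoters of the table it was 30.4%. The intervals of the first 2 shares do not overlap, and they cover counting error only. For genes with a start codon peak the share was 21.1% (19.5 to 22.8%). For genes with a stop codon peak and no 5'UTR peak it was 21.1% (20.0 to 22.2%). Both of these intervals overlap that of the 5'UTR peak genes, and the source of the differences was not tested. A first base of G was found in 41.2% of the 5'UTR peak genes and 38.6% of the other tested genes.

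The share beginning with A was 17.7% for genes of the CON list, 16.5% for genes of the VCD list and 17.8% for the 439 genes whose peak edge lay within 100 bases of the gene start. Among 72 genes with a 5'UTR peak at a log2 enrichment of 3 or more it was 20.8%, with a wide interval of 12.2 to 32.0%. The start context known from m6Am work, an A preceded by C and before that by C, G or T, was present at 6.64% of the starts of 5'UTR peak genes and 10.2% of those of the other tested genes. The core of the internal m6A motif, GGAC, was found on the transcribed strand within the first 50 bases in 21.6% and 21.3% of the 2 sets and in 19.2% of all single-start promoters. The same letters read on the opposite strand, GTCC, were found in 20.1%, 20.0% and 17.6%. The longer form GGACT, which contains GGAC, was found in 6.16% and 5.30%, against 5.70% of all single-start promoters. A match is a description of letters in this window and not a methylated site.

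Peaks in the 5'UTR were among the weaker classes in both lists. Peak values in this and the following paragraphs are the authors' log2 enrichment of IP over input, with 1 pooled value per peak and group and no replicate. The median was 1.90 in CON and 1.96 in VCD, whereas the median over all peaks was 2.31 and 2.40. Stop codon peaks, the largest class, had medians of 3.01 and 3.11, start codon peaks 2.04 and 2.09, and 3'UTR peaks 1.79 and 1.88. The 5'UTR peaks ranged from 1.22 to 5.76 in CON and from 0.69 to 5.53 in VCD. Most lay below a log2 enrichment of 2, 392 peaks in CON and 366 in VCD, and 20 and 22 peaks reached 4.

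**Figure D1:**
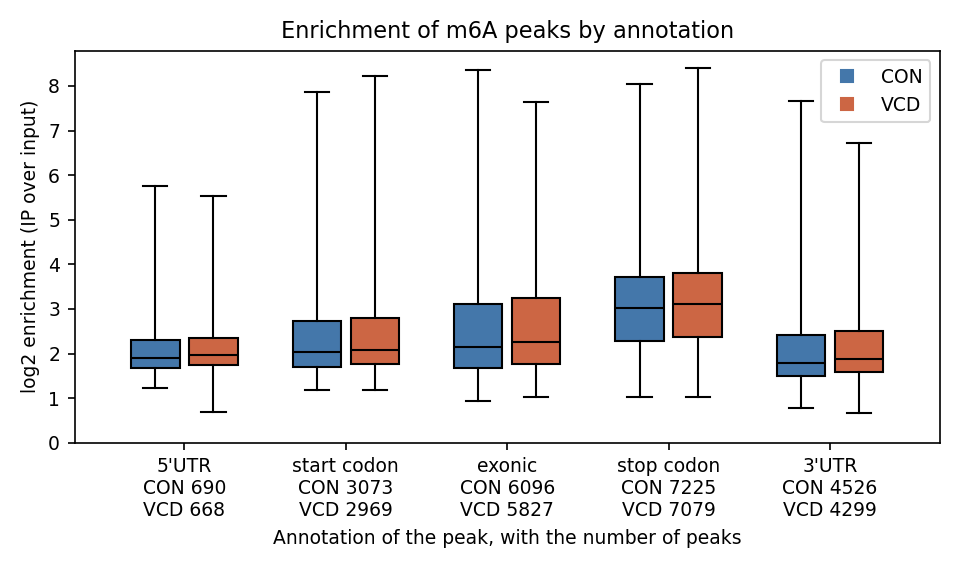
Log2 enrichment of IP over input (vertical axis) for peaks of each annotation (horizontal axis, with the number of peaks) in the CON list (blue) and the VCD list (orange). Boxes give the quartiles with the median as a line, and whiskers run from the lowest to the highest peak. The 5'UTR medians of 1.90 and 1.96 lie below the stop codon medians of 3.01 and 3.11.

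The strongest 5'UTR peak of the CON list lay in Gpr37, an orphan G protein-coupled receptor gene, at chr4:51843715-51843964 on the minus strand with a log2 enrichment of 5.76. It was followed by LOC108348137 at 5.62, Pik3c2b, a phosphoinositide 3-kinase gene, at 4.81, Eif2s3, which encodes the gamma subunit of the initiation factor eIF2, at 4.75, and Orai3, a calcium channel gene, at 4.72. In the VCD list the order began with Slc15a3, a lysosomal peptide and histidine transporter gene, at 5.53 and Cactin, a splicing-associated gene, at 5.11. The 5'UTR peak of Slc15a3 was also high in CON, at 4.66. Pik3c2b reached 4.88 in VCD and Eif2s3 reached 4.33.

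A 5'UTR peak usually began close to the annotated start of its gene. The 5' edge lay exactly at the gene start for 211 CON peaks (30.6%) and 226 VCD peaks (33.8%), and within 100 bases of it for 435 (63.0%) and 437 (65.4%). The median distance was 50 bases in CON and 44 in VCD, and that of start codon peaks was shorter, 14 and 16 bases. A position near the gene start is in part given by the 5'UTR annotation itself. A minority lay far inside the gene, 69 and 71 peaks more than 1000 bases from the start, and 7 and 6 peaks began outside the gene. Peaks with an edge within 100 bases of the gene start had a median log2 enrichment of 1.90 in CON and 1.98 in VCD, and those farther away 1.89 and 1.92.

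**Figure D2:**
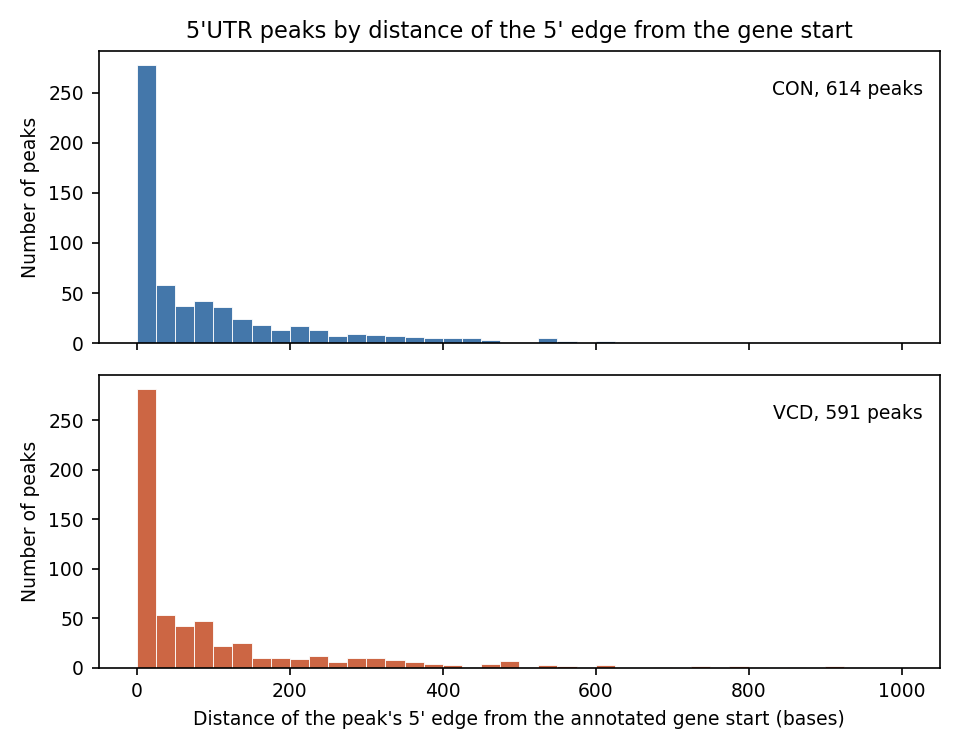
Number of 5'UTR peaks (vertical axis) by the distance of the peak's 5' edge from the annotated gene start in bases (horizontal axis, bins of 25 bases), for the CON list (blue) and the VCD list (orange). Peaks beginning outside the gene or 1000 bases or more inside it are not drawn. The tallest bin in both lists is the first, which includes the 211 CON and 226 VCD peaks that begin at the gene start.

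The 5'UTR peaks were short compared with the lists as a whole. The span of a peak is the distance from its first to its last base on the genome, introns included. Its median was 449 bases in CON and 375 in VCD, against 1618 and 1627.5 bases over all peaks. Peaks in the 3'UTR were shorter still, with a median of 325 bases in both lists and 8.62% and 8.98% over 1000 bases. Spans of at most 500 bases were found for 360 CON and 377 VCD peaks, and 50 and 69 of them were exactly 100 bases, the shortest span in the lists. Spans over 1000 bases accounted for 39.1% and 35.0%, and had a median enrichment of 1.82 in CON and 1.96 in VCD, compared with 1.93 and 1.94 for spans of up to 500 bases.

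Genes with a 5'UTR peak mostly carried further peaks. Only 15.6% of them in CON and 16.1% in VCD had no other peak, whereas 55.7% and 56.3% of the other genes with a peak had a single peak. A gene with many peaks is more likely to be picked by a rule that asks for a given kind of peak. This contrast therefore follows in part from the selection, and the size of that part was not tested. A stop codon peak was present in 57.7% and 57.0% of the 5'UTR peak genes, close to the 54.7% and 54.9% of the other genes. A separate start codon peak was present in 10.1% and 10.9%, against 24.0% and 23.7%. The authors' rule for annotating a peak that covers both the 5'UTR and the start codon is unknown. These shares may therefore depend on that rule and on how far each peak was extended, which was not tested.

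Within a gene the 5'UTR peak was usually the weaker of the pair. It exceeded the strongest stop codon peak in 76 of 382 genes in CON (19.9%) and in 66 of 361 in VCD (18.3%), and the median difference on the log2 enrichment scale was -0.95 and -0.90. The immediate-early transcription factor gene Egr2 stood at the lower end in CON, with 1.28 in the 5'UTR and 4.85 at the stop codon. Zfp503, a zinc finger repressor gene, had 1.99 against 5.44 in CON and 2.12 against 5.37 in VCD. Sinhcaf, a gene for a subunit of a SIN3 histone deacetylase complex, was at the upper end in CON with 4.60 in the 5'UTR and 2.32 at the stop codon. Slc15a3 was at the upper end in VCD with 5.53 against 2.68.

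Enrichment was higher in genes with little input RNA. Among 5'UTR peaks of genes under 1 FPKM in their own group the median log2 enrichment was 2.74 in CON (36 peaks) and 3.41 in VCD (31 peaks). It was 1.98 and 2.00 for genes from 1 to 10 FPKM, and 1.85 and 1.90 for genes at 10 FPKM or more. Only peaks that passed the authors' threshold are listed, and the part of that filter in these differences was not tested. Mk1, with a peak at chr16:20532970-20534209 at 4.11 in CON and 4.14 in VCD, has an FPKM listed at 0 in all 8 input libraries, which can be a failed estimate. Genes with a 5'UTR peak were well expressed as a set, with a median CON level of 11.1 FPKM against 2.90 over all genes of the table. Over genes with a peak of any kind the median CON level was 7.61 FPKM.

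Of the 690 CON peaks, 128 had the same chromosome, start, end and strand in the VCD list, which was 18.6% of the CON and 19.2% of the VCD 5'UTR peaks. The corresponding shares over all peaks were 27.0% and 28%. Overlap by at least 1 base on the same strand was much more frequent, at 426 CON peaks (61.7%) and 430 VCD peaks (64.4%). A further 94 CON and 108 VCD peaks overlapped only peaks with another annotation, in 70 and 86 cases a start codon peak. No peak of the other list was overlapped by 170 CON peaks (24.6%) and 130 VCD peaks (19.5%), shares above the 12% and 8.26% of all peaks. In 143 and 116 of these cases the same gene still had a peak elsewhere in the other list.

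**Figure D3:**
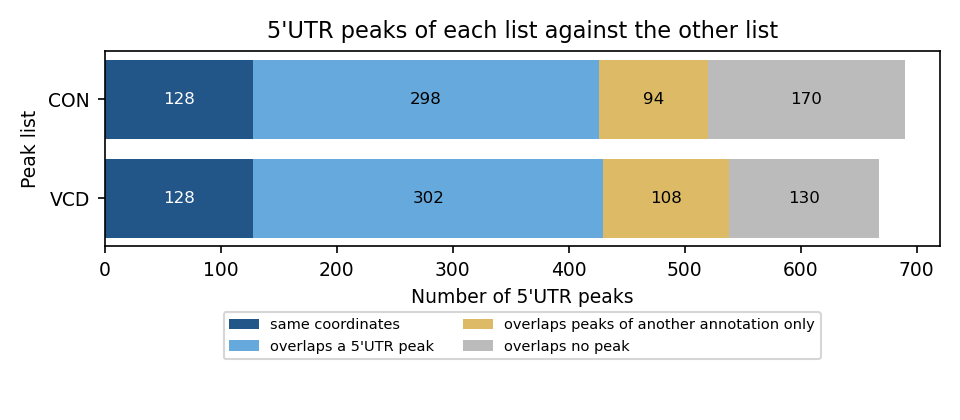
Number of 5'UTR peaks (horizontal axis) of the CON and the VCD list (vertical axis), divided by how they meet peaks of the other list on the same strand. In both lists 128 peaks have the same coordinates, and 170 CON and 130 VCD peaks overlap no peak of the other list.

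The peaks without any overlap were weak, with a median log2 enrichment of 1.76 in CON and 1.81 in VCD, and short, with median spans of 300 and 175 bases. Overlapping 5'UTR peaks had medians of 2.01 and 2.06. The strongest peaks found in CON alone lay in LOC108348137 (5.62), in the phospholipase gene Pla2g2c (3.74), in Sfi1, a centrosomal gene (3.59), in Rev3l, the catalytic subunit gene of DNA polymerase zeta (3.54), and in B4galt6, a lactosylceramide synthase gene (3.36). Those found in VCD alone lay in the developmental gene Mab21l1 (4.48), in Has2, a hyaluronan synthase gene (4.09), in the GTPase-activating protein gene Arhgap24 (3.59), in Pcid2, which acts in mRNA export (3.44), and in Gtf2ird1, a transcription factor gene (2.85). Several of these genes had almost no input RNA. Mab21l1 was between 0 and 0.055 FPKM in the 4 CON libraries and between 0 and 0.033 in the 4 VCD libraries, Has2 had means of 0.120 and 0.154 FPKM, and Pla2g2c means of 0.047 and 0.036 FPKM. LOC108348137 (means of 7.47 and 5.92 FPKM) and Rev3l (4.29 and 3.01 FPKM) were lower in VCD without overlap (background 9.58% of tested genes). Neither was called, and in the other genes named here the groups overlapped.

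For the 128 peaks with the same coordinates, the VCD value was higher in 77 and lower in 51. That is 60.2% higher, compared with 71.2% over all 6028 shared peaks of the lists. The median VCD minus CON difference in log2 enrichment was 0.06 (SD over peaks 0.27), and 0.07 over all shared peaks. Differences under 0.5 in size were found for 121 of the 128. The 2 values of a peak ran closely together, with a Pearson correlation of 0.93 and a Spearman correlation of 0.88 over the 128 peaks, which come from the same pair of pooled library sets. No replicate error can be attached to these differences.

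**Figure D4:**
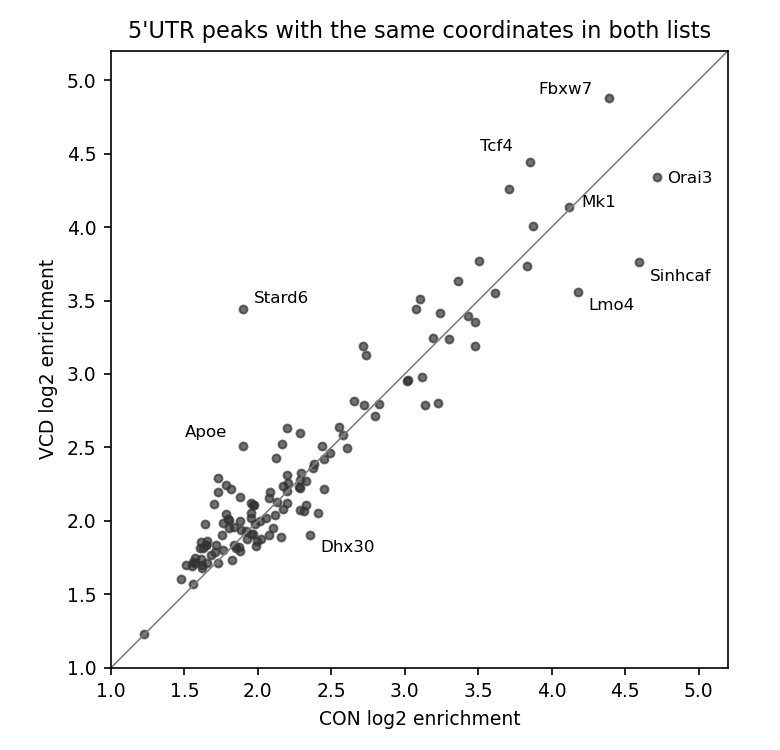
Log2 enrichment in VCD (vertical axis) against CON (horizontal axis) for the 128 5'UTR peaks with the same coordinates in both lists, each point a peak, with a grey line of equal values. Most points lie close to the line, Stard6 lies farthest above it (1.90 in CON, 3.44 in VCD) and Sinhcaf farthest below it (4.60 and 3.76).

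The highest of these shared peaks lay in genes of varied function. Fbxw7, the substrate receptor of a ubiquitin ligase that degrades cyclin E and MYC, had 4.39 in CON and 4.88 in VCD at chr2:184288953-184309664 on the minus strand. Orai3, a store-operated calcium channel gene, had 4.72 and 4.34 at chr1:199217016-199217340 on the plus strand. Tcf4, a basic helix-loop-helix factor gene, had 3.85 and 4.45, and Gse1 had 3.71 and 4.26. Rgs12, a regulator of G protein signalling, had 3.87 and 4.00, and the LIM-only transcription cofactor gene Lmo4 had 4.18 and 3.56. Kank1, which organises the cortical actin cytoskeleton, had 3.50 and 3.77, with its peak 97811 bases inside the annotated gene. Ppfibp2, a liprin gene, had 3.83 and 3.74, with a peak that began outside the gene.

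The largest positive difference was in Stard6, a gene of the START family of sterol-binding proteins, with 1.90 in CON and 3.44 in VCD, a difference of 1.54 at chr18:68983620-68984080. Apoe, the apolipoprotein gene of cholesterol transport, followed with 1.90 and 2.51, and then Tcf4, Ppt2, a lysosomal thioesterase gene (1.73 and 2.29), Gse1 and Fbxw7. Fgf1, a fibroblast growth factor gene, had 1.73 and 2.20, and the mitochondrial fusion gene Mfn1 had 1.79 and 2.25. The input FPKM of Stard6 was 1.51 ± 0.309 in CON and 1.48 ± 0.390 in VCD (SD, n = 4), and that of Apoe was 1486 ± 404 and 1233 ± 382 (SD, n = 4), so the groups overlapped in both genes.

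The most negative difference was in Sinhcaf, -0.84 at chr4:183424286-183426436, with 4.60 in CON and 3.76 in VCD. Lmo4 followed with -0.62. The RNA helicase gene Dhx30 had 2.36 in CON and 1.90 in VCD, and Erg28, a gene of sterol synthesis, had 3.22 and 2.81. Smaller differences were found for Orai3, for the extracellular sulfatase gene Sulf2 (2.41 and 2.06), for Zfp330 (3.14 and 2.79) and for Pianp (3.48 and 3.19). None of these differences in the peak lists carries a test.

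When peaks were paired by overlap, 423 pairs were formed and their median difference was also 0.06. The 5' edge was the same in 269 pairs, and the median difference in span was 25 bases. A difference of at least 1 with VCD higher was found in 4 pairs, those of Stard6, Cactin (3.93 and 5.11), Map3k13, a MAP kinase kinase kinase gene (2.14 and 3.23), and the purinergic receptor gene P2ry1 (2.47 and 3.54). A difference of at least 1 with VCD lower was found in 1 pair, that of Gpr37, with 5.76 in CON and 3.08 in VCD.

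The authors tested differences between the groups peak by peak. The authors' deposited table lists 5533 peaks. All but 5, which have no p-value, have an unadjusted p under 0.05. Of the 5533 peaks 100 are annotated to the 5'UTR, all with a p-value, 66 of them higher and 34 lower in VCD. Over all listed peaks 82.8% are higher in VCD. The authors' deposited table marks a peak where the change is at least 1 on the log2 scale; 22 of the 100 5'UTR peaks are marked (22.0%), against 7.79% of all listed peaks. Of the marked peaks 13 are higher (background 4.64% of all listed peaks) and 9 are lower (background 3.14%). The marked 5'UTR peaks were short, with a median span of 175 bases and 18 of 22 spanning at most 500 bases. An adjusted p under 0.05 is given in the authors' deposited table for 36 of the 100 (background 49.8% of listed peaks), 26 higher and 10 lower, and in 19 of these 36 the change is under 0.5.

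Both criteria together were met by 6 peaks of 5 genes (6.0%, background 4.01%). In the authors' deposited table the largest change is in Zfp260, a zinc finger gene, at chr1:88457594-88461650, where the enrichment is 0.89 in CON and 4.26 in VCD (adjusted p = 9.35e-05). That region overlaps no 5'UTR peak of either list, and 2 gene entries share the symbol Zfp260. In the authors' deposited table Gpr37 has 2 such regions that lie next to each other, with 5.88 in CON and 3.15 in VCD (adjusted p = 0.0195) and with 4.72 and 2.48 (adjusted p = 0.0208). Its input level was 0.306 ± 0.063 FPKM in CON and 0.386 ± 0.206 in VCD (SD, n = 4), below the minimum for the expression test.

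The remaining peaks that met both criteria were higher in VCD. In the authors' deposited table Osgep, which encodes the catalytic subunit of a tRNA-modifying complex, has 1.62 and 3.50 (adjusted p = 0.022), Fis1, a mitochondrial fission gene, has 1.71 and 2.94 (adjusted p = 0.0134), and Map3k13 has 2.12 and 3.22 (adjusted p = 0.0451). The 5'UTR peak of Osgep in the VCD list itself, shifted by 25 bases, has 2.30. The region of Fis1 overlaps a 5'UTR peak in the CON list alone, and the region of Osgep in the VCD list alone. In the peak lists, the CON 5'UTR peak of Fis1 has 1.73, and a VCD peak annotated as exonic, at 1.68, overlaps it. Input levels of these genes overlapped between the groups: Osgep had 15.5 ± 1.16 FPKM in CON and 16.0 ± 1.67 in VCD, Fis1 had 62.5 ± 3.54 and 71.4 ± 7.37, and Map3k13 had 0.676 ± 0.172 and 0.520 ± 0.082 (SD, n = 4).

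The smallest adjusted p-values among 5'UTR peaks belonged to small changes. In the authors' deposited table Kank1 is at 3.48 in CON and 3.75 in VCD (adjusted p = 1.13e-10), Ddah2, a gene of methylarginine breakdown, at 3.39 and 3.61 (adjusted p = 7.13e-07), and Vegfa, the vascular endothelial growth factor gene, at 2.96 and 3.12 (adjusted p = 1.07e-05). How the spread between rats entered the authors' p-values is not stated in the labels or headers. Stard6, the largest difference among shared peaks, is marked in the authors' deposited table with an adjusted p of 0.0567.

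Input RNA of the 5'UTR peak genes was compared between 4 CON and 4 VCD libraries with limma on log2(FPKM + 1). Nr4a3 and Per1 rose and 5 genes fell. FPKM are reads scaled to gene length and library size, and the tables keep no library totals, so the depth is unknown. Of 874 genes with a 5'UTR peak and an FPKM, 851 passed the minimum mean of 0.5 FPKM, and 7 were called at an adjusted p under 0.05 (0.823%, against a background of 0.447% of 14978 tested genes). Higher calls numbered 2 (background 0.107%) and lower calls 5 (background 0.34%). The median log2 change of the 851 genes was -0.05, and -0.06 over all tested genes. The groups did not overlap for 30 genes higher in VCD (3.53%, background 2.27%) and 69 genes lower (8.11%, background 9.58%). Of the 874 genes, 67 have a q-value under 0.05 in the authors' deposited table (7.67%, background 4.58%), and these include the 7. Over genes with a peak of any kind, the share with such a q-value was 6.46%.

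Nr4a3, an orphan nuclear receptor gene of the immediate-early type, was at 1.28, 0.697, 0.965 and 0.751 FPKM in CON and at 3.47, 4.30, 5.04 and 2.88 FPKM in VCD. All VCD libraries were above all CON libraries. The change was 1.34 ± 0.16 (SE) on the log2(FPKM + 1) scale, with an adjusted p of 0.0126 in limma, and it was positive in all 4 batches. Its 5'UTR peak, at chr5:63781901-63782125, has a log2 enrichment of 2.1 in the CON list, and a VCD peak annotated to the start codon, at 2.93, overlaps it.

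Per1, which encodes a repressor in the circadian clock, was at 21.0, 23.7, 22.7 and 25.2 FPKM in CON and at 42.2, 38.1, 38.6 and 43.7 FPKM in VCD. The groups did not overlap. The change was 0.79 ± 0.08 (SE) with an adjusted p of 0.00493 in limma, and was positive in all 4 batches. Its 5'UTR peak, at chr10:55687050-55687174 with 1.68, overlaps no CON peak and begins at the gene start.

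Kcnk2, a two-pore potassium channel gene, was at 2.95, 2.31, 2.91 and 1.74 FPKM in CON and at 1.14, 0.296, 0.212 and 0.338 FPKM in VCD, a log2 change of -1.24 ± 0.20 (SE; limma adjusted p = 0.0429). Igsf9, an immunoglobulin superfamily adhesion gene, was at 8.46, 7.08, 7.85 and 5.55 FPKM in CON and at 3.76, 2.26, 1.70 and 2.85 in VCD, a log2 change of -1.19 ± 0.18 (SE; limma adjusted p = 0.0349). In both genes every VCD library was below every CON library. St8sia1, a ganglioside sialyltransferase gene, had means of 2.32 ± 0.19 and 0.968 ± 0.188 FPKM (SD, n = 4; limma adjusted p = 0.0248). Osbpl8, an oxysterol-binding protein gene, had 4.39 ± 0.288 and 2.33 ± 0.461 FPKM (SD, n = 4; limma adjusted p = 0.0455), and Nt5e, the ectonucleotidase gene that yields extracellular adenosine, had 11.2 ± 0.818 and 7.19 ± 0.151 FPKM (SD, n = 4; limma adjusted p = 0.0208).

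**Figure D5:**
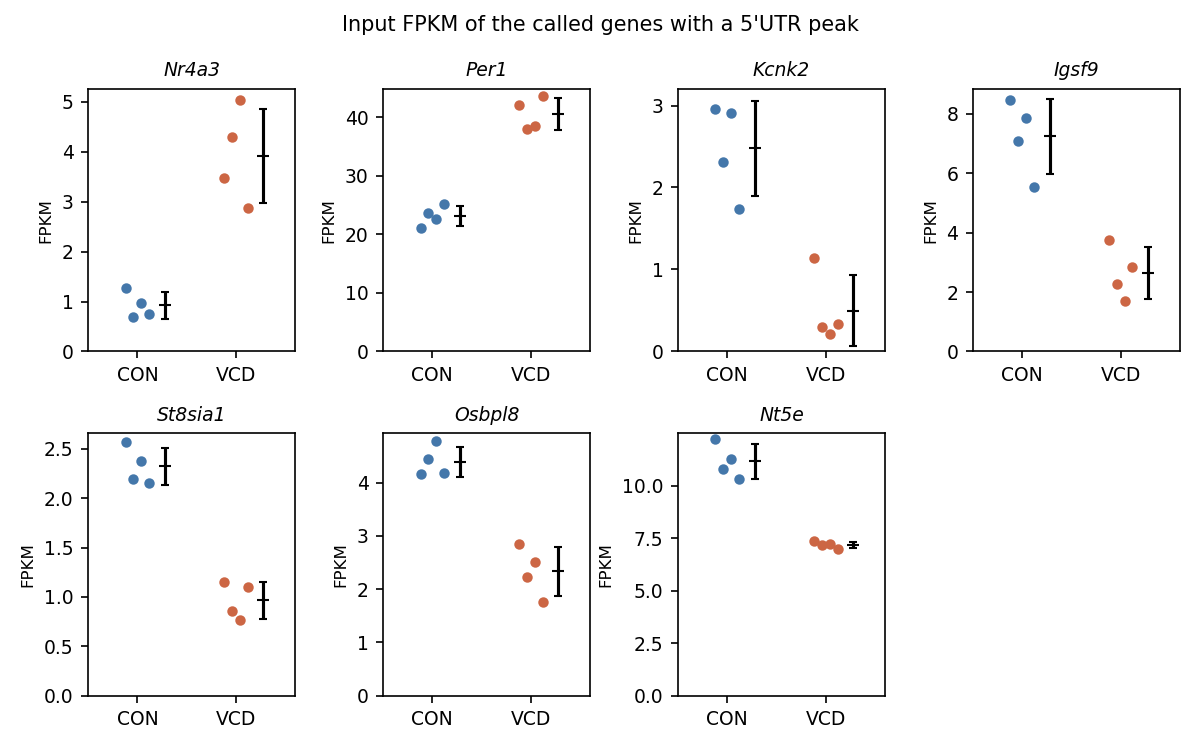
Input FPKM (vertical axes, each from 0) of the 7 called genes with a 5'UTR peak in the 4 CON libraries (blue points) and the 4 VCD libraries (orange points), with the mean and SD as black bars beside them. Nr4a3 and Per1 are higher in every VCD library, and Kcnk2, Igsf9, St8sia1, Osbpl8 and Nt5e are lower in every VCD library.

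With the batch number as a block, Per1 (adjusted p = 0.0451) and Nr4a3 (adjusted p = 0.0453) kept their calls, and the 5 genes that fell did not (adjusted p from 0.0653 to 0.0804), although each was lower in VCD in all 4 batches. Pttg1, the securin gene, was called lower under the block (log2 change -1.12, limma adjusted p = 0.0426). Without CON replicates 1, 2 or 3, or without VCD replicates 2 or 4, only Per1 and Nr4a3 of the 5'UTR peak genes were called. The sum of 16 oocyte markers, none of which has a 5'UTR peak, was 43.0 to 67.7 FPKM in CON and 9.27 to 14.2 FPKM in VCD, and 9 of its 11 tested members were called lower (background 0.34%) with none under 0.1 FPKM in every library. The summed FPKM of genes typed as rRNA was 13.5 to 31.9 in CON and 32.3 to 61.2 in VCD. The part of oocyte number or of rRNA in the calls above was not tested.

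Changes in peak enrichment and in input RNA did not run together among the shared peaks. Over 126 shared peaks of tested genes the Pearson correlation of the VCD minus CON difference in enrichment with the log2 change in FPKM was 0.01 and the Spearman correlation 0.07, given as a description since all points share the same libraries.

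Of all 22663 genes with an FPKM, 874 had a 5'UTR peak (3.86%), and over the 13534 genes with a peak of any kind the share was 6.46%, the background for the gene lists that follow. Of 12 writer and eraser genes and of 12 reader genes none had a 5'UTR peak, a count near that background for lists of this size. No writer or eraser gene was called in the input. Pcif1, the m6Am writer, was at 11.9 ± 1.35 FPKM in CON and 11.5 ± 0.698 in VCD (SD, n = 4; log2 change -0.04 ± 0.09 SE, limma adjusted p = 0.843). Mettl3 was at 32.6 ± 2.55 and 33.0 ± 1.81 FPKM, Fto at 19.9 ± 1.28 and 20.4 ± 2.07, and Alkbh5 at 20.2 ± 0.527 and 20.6 ± 1.67 (SD, n = 4), with overlapping groups in each. Of the 12 writers and erasers, 4 were higher in VCD, and 36.5% of all tested genes were higher. Mettl16, a methyltransferase gene, was at 8.51, 7.23, 8.16 and 7.24 FPKM in CON and at 6.79, 6.82, 6.20 and 6.27 FPKM in VCD, without overlap, and was not called. A fall without overlap was found in 9.58% of all tested genes.

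Of 34 immediate-early genes, 5 had a 5'UTR peak (14.7%), namely Egr2, Fosb, Klf9, Per1 and Zfp36l2; 2 genes of this list were called higher in the input (background 0.107%) and none lower (background 0.34%). Fosb, an AP-1 subunit gene, had a log2 enrichment of 4.11 in CON, overlapped by a VCD start codon peak at 3.23. Its input level was 1.02, 1.07, 9.16 and 0.651 FPKM in CON and 8.54, 2.87, 1.82 and 20.2 FPKM in VCD, so the third CON library lay within the VCD range. Klf9 had 1.86 in CON and 1.71 in VCD, and Zfp36l2, an mRNA decay factor gene, had 2.00 in VCD, overlapped by a CON start codon peak at 3.81.

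Of 23 genes of the DNA damage response, 4 had a 5'UTR peak (17.4%), among them Atm and Phlda3. Phlda3, an inhibitor of AKT signalling, had 1.75 in CON and 1.70 in VCD. Atm, the DNA damage kinase gene, had 1.74 in VCD, overlapped by a CON start codon peak at 1.62. Of this list 1 gene was called lower in the input (background 0.34%) and none higher (background 0.107%), and no called member of it had a 5'UTR peak.

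Among 28 gonadal transcription factors and receptors, Nr2f1, Nr4a3 and Runx2 had a 5'UTR peak (10.7%). Nr2f1, an orphan nuclear receptor gene, had 2.56 in CON and 2.34 in VCD. Runx2, a luteinisation-associated transcription factor gene, had 1.72 in the VCD list alone. In the authors' deposited table a Runx2 region has 1.34 in CON and 1.87 in VCD (adjusted p = 0.0133), and is not marked. Input Runx2 was 33.3 ± 0.654 FPKM in CON and 43.7 ± 7.10 in VCD (SD, n = 4, limma adjusted p = 0.134). It was higher in every VCD library (background 2.27% of tested genes), and the authors' q-value is 0.0184. Of 22 genes of steroidogenesis and cholesterol, 2 had a 5'UTR peak (9.09%). Cyp11a1, the side-chain cleavage enzyme that makes pregnenolone, had 1.78 and Cyp51, a sterol demethylase of cholesterol synthesis, had 2.58, both in the VCD list alone and both beginning at the gene start with a span of 100 bases. The Cyp51 region is marked in the authors' deposited table with 1.53 in CON and 2.58 in VCD and an adjusted p of 0.186. Input Cyp51 was 69.2 ± 17.2 and 109 ± 31.4 FPKM (SD, n = 4; limma adjusted p = 0.179) with overlapping groups. The theca marker Cyp11a1, the luteal marker Pgf and the stromal marker Dcn were the cell type markers with a 5'UTR peak.

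Among the other families, 2 of 38 translation initiation factors (Eif1ax and Eif2s3), 2 of 27 heat shock and chaperone genes (Hspb1 and Hsph1), 1 of 93 ribosomal protein genes (Rpl7) and 13 of 250 Zfp zinc finger genes had a 5'UTR peak, and no gene of these 4 lists was called in the input. Rpl7 had 2.44 in CON and 2.51 in VCD at the same coordinates, chr5:2632712-2633461. Hspb1 and Hsph1 had 1.89 and 1.92 in VCD, overlapped by CON start codon peaks at 1.79 and 1.61. Zfp84 had 4.19 in CON, over a span of 198980 bases. None of 21 NRF2 and antioxidant genes and none of 7 genes named in the series text had one.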

How the data were processed

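Poly(A) RNA of rat ovary was profiled by m6A immunoprecipitation (IP) and sequencing beside input, 16 libraries in all. The submitters' processing notes name HOMER 4.10, edgeR 4.1, StringTie 2.1.2, HISAT2 2.0.4 and fastp 0.19.4 without roles, and list GRCh38; the peak caller and the build of the coordinates are not given in the sources used here. Per the file headers, the authors deposited peak lists with 1 log2 enrichment, p-value and adjusted p-value per peak and group, a differential peak table with log2 changes, and gene FPKM per input library with a fold (VCD over CON ratio), p-value and q-value. Peak starts were found to count from 0 and are printed counted from 1. The highest adjusted p of a 5'UTR peak was 0.000253.

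Gene FPKM were tested with limma 3.58.1 in R 4.3.3 on log2(FPKM + 1) for genes whose mean over the 8 libraries reached 0.5 FPKM, with a trend in eBayes and Benjamini-Hochberg adjustment over all 14978 genes. On simulated data with that many genes it recovered 97 of 100 genes changed by 1 and 100 of 100 changed by 2 on the log2 scale, with 6 of 203 calls among unchanged genes. The simulated noise was normal and independent, and changed genes were drawn only where the mean log2(FPKM + 1) was at least 2. Recovery below that level, where Kcnk2 and St8sia1 lie, was not tested. Fold changes on this scale understate those of low genes. Peak values have no replicates, so shares and differences of peaks carry no test. Same-numbered CON and VCD samples share a batch number in the labels, so the replicate number was used as a block in an alternative fit. Deviations from the group means of same-numbered libraries correlated between -0.09 and 0.01. The reported fit has no block. The labels do not say more of how the rats were bred or housed. RefSeq start sites (GRCr8) were matched by symbol or synonym for 689 of 874 genes. Members, gene lists and tests were chosen with earlier results of these data known. Genes are named by a rule: the 10 highest shared peaks, the 8 largest rises and falls, the peaks marked by the authors with an adjusted p under 0.05, the called genes, up to 4 members of each list, the 5 highest peaks of each list without overlap, and the m6A enzymes. Other genes, such as the highest peaks of each list, the pairs by overlap, the extremes against stop codon peaks and the smallest adjusted p-values, were named after their values were seen. The alternatives were stricter peak thresholds, overlap in place of identical coordinates, other pseudocounts, filters and normalizations, the block, and leaving out each library. Some members of the gene lists are not reported here.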

Additional observations from a re-analysis of the deposited data

Results flagged for a closer look

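Gene levels were examined for a library far from the other 3 of its group, measured as its gap to the nearest of them over the range of the group, with Dixon's 95% critical value as the limit. Of 140 groups of named genes, 9 passed, and chance alone flags about 1 in 20 groups. The third CON library was the highest in 5 of them. Fosb was at 9.16 FPKM there and between 0.651 and 1.07 in the other CON libraries (gap 0.951). Tcf4 was at 11.3 FPKM against 7.72 to 7.87 (0.956), Rev3l at 5.30 against 3.85 to 4.07 (0.845), Gse1 at 5.70 against 4.71 to 4.84 (0.875), and Eif1ax at 24.7 against 23.7 to 23.8 (0.908). The fourth CON library was highest for Runx2, at 34.3 FPKM against 32.9 to 33.0 (0.957). Among VCD libraries, the first was highest for Kcnk2, at 1.14 against 0.212 to 0.338 FPKM (0.865), and for Wtap, at 19.7 against 18.4 to 18.6 (0.845). The second was highest for Gtf2ird1, at 5.44 against 4.24 to 4.32 (0.931).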

How the results depend on the processing

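The number of 5'UTR peaks was the same at an adjusted p under 0.01, and fell to 298 in CON and 302 in VCD at a log2 enrichment of at least 2. Shared peaks numbered 128 by identical coordinates, 426 (CON) and 430 (VCD) by an overlap of at least 1 base, and 372 by a reciprocal overlap of at least 50%. The median VCD minus CON difference was also 0.06 when peaks were paired by overlap. Keeping 1 peak a gene, or an adjusted p under 0.01 in both lists, left the same 128 peaks and so could not move it. The authors' differential 5'UTR peaks numbered 22 as marked, 100 with no minimum change and 6 with an adjusted p under 0.05 as well. The share of starts with A stayed within its interval for either list. The 7 limma calls among 5'UTR peak genes became 4 with no filter on low values and 1 with a minimum mean of 5 FPKM. They numbered between 2 and 7 when each library was left out in turn. The authors' deposited q-value gives 67 genes (7.67%, against 4.58% of all genes and 6.46% of genes with a peak of any kind). With the replicate block for the batch pairs there were 3 calls, of which 2 were among the 7; the log2 changes themselves stay the same under the block by its construction. There were 5 calls with a pseudocount of 0.1, and 6 each after quantile normalization or scaling to a common median. The log2 change of Pcif1 was 0.0349 with quantile normalization and 0.0508 with scaling to a common median, and ranged from -0.0876 to 0.0179 when libraries were left out. That of Osgep ranged from -0.00676 to 0.102. Without the third VCD library, Nr1d2 and Ccna2 were called in place of Kcnk2 and Osbpl8. Peak values come from pooled libraries, so leaving out a rat was not possible for them, and weak peaks near the authors' threshold limit every statement about peaks present in 1 list alone.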
